A study of Mus musculus with 9 samples.

Results

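Genes of 5 beta-defensins and of 1 secreted protease inhibitor were followed through the ear dermis of mice with imiquimod-induced skin inflammation. The 6 members were Defb1, Defb3, Defb4, Defb6, Defb14 and Slpi, taken by gene symbol from a table of 52550 genes. Messenger RNA was measured in 9 libraries from wild-type C57BL/6 mice aged 8 weeks, with 3 libraries in each of 3 groups. VAS+H2O was the control group, with vaseline on the ear for 5 days and distilled water by gavage for 10 days. IMQ+H2O was the model group, with imiquimod cream in place of vaseline. Imiquimod is an agonist of Toll-like receptor 7 that gives mouse skin a psoriasis-like inflammation. IMQ+XYF received the same cream together with the herbal decoction Xiao-Yin-Fang (XYF) at 23.3 mg/g in place of water, also for 10 days. Gavage started 5 days before the cream in all groups. Nothing in the labels ties a library to 1 mouse, so the p-values below measure the spread between these libraries, which may be partly technical.

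Beta-defensins are short cationic peptides that epithelia secrete and that damage the membranes of bacteria and fungi. They are also ligands of chemokine and G protein-coupled receptors on leukocytes. In skin, keratinocytes are their main source. Defb1 is known as a constitutively expressed member, whereas Defb3, Defb4 and Defb14 are known to be induced by microbes and by cytokines such as IL-17 and IL-22. Slpi encodes secretory leukocyte protease inhibitor, a protein of the whey acidic protein (WAP) domain family that blocks neutrophil elastase and cathepsin G and has antimicrobial activity of its own. Epithelial cells, neutrophils and macrophages all make it, and psoriatic epidermis is known for high levels.

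The coding sequences of the 5 beta-defensins are shown because they show what makes these genes 1 family and how far reads of 1 member could be taken for another. They were read from the GENCODE vM21 transcripts (GRCm38), run 5′ to 3′ from the start codon to the last codon before the stop, and have every cysteine codon in capitals.
Defb6: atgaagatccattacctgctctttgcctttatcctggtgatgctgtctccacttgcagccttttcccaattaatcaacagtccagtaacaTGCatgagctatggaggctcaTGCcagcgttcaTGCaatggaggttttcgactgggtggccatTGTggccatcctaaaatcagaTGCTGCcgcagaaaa
Defb4: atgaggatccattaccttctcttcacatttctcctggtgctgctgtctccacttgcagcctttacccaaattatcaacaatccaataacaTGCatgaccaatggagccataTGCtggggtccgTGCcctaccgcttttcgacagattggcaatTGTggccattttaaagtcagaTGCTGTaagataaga
Defb3: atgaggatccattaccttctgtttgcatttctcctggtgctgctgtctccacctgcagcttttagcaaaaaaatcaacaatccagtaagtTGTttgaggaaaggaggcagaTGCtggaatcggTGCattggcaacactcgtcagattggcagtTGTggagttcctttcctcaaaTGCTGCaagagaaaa
Defb1: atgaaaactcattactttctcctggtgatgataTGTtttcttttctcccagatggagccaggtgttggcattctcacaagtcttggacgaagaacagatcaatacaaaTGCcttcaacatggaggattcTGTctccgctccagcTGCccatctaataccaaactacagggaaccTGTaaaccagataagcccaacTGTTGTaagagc
Defb14: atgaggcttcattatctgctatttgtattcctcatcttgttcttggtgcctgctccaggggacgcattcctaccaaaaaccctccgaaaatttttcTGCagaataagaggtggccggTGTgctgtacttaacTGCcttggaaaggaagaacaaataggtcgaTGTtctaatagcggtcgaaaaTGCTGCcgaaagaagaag

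The spacing of the last 6 cysteine codons is the signature of the family. Between them lay 6, 3, 9, 6 and 0 other codons in Defb3, Defb4 and Defb6, and 6, 4, 9, 6 and 0 in Defb1 and Defb14. Over the whole coding sequence the members were less alike. Defb4 and Defb6 had identical bases at 78.3% of the aligned positions, Defb3 and Defb4 at 75.7%, and Defb3 and Defb6 at 71.4%. Defb14 shared between 48.4% and 57.2% with the other members. Of the genes, 4 lie together on the plus strand of chromosome 8, Defb14 at chr8:19194357-19195212, Defb4 at chr8:19198706-19201545, Defb6 at chr8:19225478-19228209 and Defb3 at chr8:19293360-19295291. Defb1 lies apart from them at chr8:21776599-21795185, a distance of 2329.0 kb from the nearest. Each has 2 exons in the annotation, and the annotated exons of Defb14 hold nothing beyond the coding bases and the stop codon. Slpi is on the minus strand of chromosome 2 at chr2:164354070-164389095, has 3 annotated transcripts, and a coding sequence of 131 codons, 17 of them for cysteine. A microRNA gene, Mir7678, is annotated within it on the same strand. Of the stretches of 50 bases in the members' exons, those shared with another gene's transcripts were 23 of 405 in Defb4, all of them with Defb8, and 0 in the other members. Reads of Defb4 and Defb8 were therefore the only ones of these genes that could have been mixed over a whole stretch of that length.

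The promoters of 3 members, Defb6, Defb3 and Slpi, were matched by symbol in RefSeq (GRCm38.p6) and are shown because factors that act below the IL-17 and IL-1 receptors bind motifs of known letters. Each line gives the 250 bases before the RefSeq start of transcription, 5′ to 3′ on the gene's own strand. The RefSeq start of Slpi lies within the longer GENCODE span of the gene. Capitals mark matches on either strand to the NF-kB letters, which are GGG, any 5 bases and CC, or to the C/EBP letters, TTGCNNAA.
Defb6, chr8:19225228-19225477, plus strand: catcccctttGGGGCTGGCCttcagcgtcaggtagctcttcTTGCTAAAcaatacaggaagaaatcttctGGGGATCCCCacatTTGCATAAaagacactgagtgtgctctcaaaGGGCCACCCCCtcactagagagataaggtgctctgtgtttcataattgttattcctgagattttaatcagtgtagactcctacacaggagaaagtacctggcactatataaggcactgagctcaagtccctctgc
Defb3, chr8:19293111-19293360, plus strand: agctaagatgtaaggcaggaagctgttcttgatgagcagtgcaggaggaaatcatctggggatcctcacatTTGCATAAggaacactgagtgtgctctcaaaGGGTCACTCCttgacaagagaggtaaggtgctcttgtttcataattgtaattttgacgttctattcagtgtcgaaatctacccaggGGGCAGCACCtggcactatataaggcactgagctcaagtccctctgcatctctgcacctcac
Slpi, chr2:164356508-164356757, minus strand: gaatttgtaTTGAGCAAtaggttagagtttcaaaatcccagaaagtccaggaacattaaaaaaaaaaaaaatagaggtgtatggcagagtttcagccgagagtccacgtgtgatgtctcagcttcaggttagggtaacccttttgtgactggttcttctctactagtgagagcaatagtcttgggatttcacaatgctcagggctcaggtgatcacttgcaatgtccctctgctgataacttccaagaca

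The window of Defb6 held 4 matches of the NF-kB letters, of which 2 on opposite strands overlapped, and 2 of the C/EBP letters. That of Defb3 held 2 and 1, and that of Slpi held 1 C/EBP match and no NF-kB match. Windows of 250 bases with the NF-kB letters are common, at 45.8% of 32851 RefSeq promoters, and those with the C/EBP letters made up 9.56%. Neither TGANTCA (AP-1, 6.75% of promoters) nor TTCNNNGAA (STAT, 7.02%) was found in the 3 windows. The promoters of Defb3 and Defb6 had identical bases at 72.5% of aligned positions, whereas Slpi matched them at 50.3% and 44.7%. A match of letters is a description of the window and does not show that a factor binds there.

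Total counts per library ran from 28756305 to 79836881, and levels are given as CPM, the count relative to the library total scaled with edgeR's TMM factor. A count of 0 allows up to 3 counts, which corresponded to between 0.0373 and 0.103 CPM, and this limit covers counting error only. A gene was called where its edgeR adjusted p was at most 0.05 and its log2 fold change at least 1 in size. The dermis label was checked against markers. All 10 dermal fibroblast markers had counts in every library. So did all 16 markers of baseline epidermis such as Krt5, Krt10 and Krt14, whose summed level was 5212 to 10266 CPM in VAS+H2O, 3204 to 4580 CPM in IMQ+H2O and 6025 to 24276 CPM in IMQ+XYF. The keratinocyte transcripts were therefore far from absent in these dermal sheets, and the highest sum belonged to IMQ+XYF replicate 1. In bulk tissue, fewer cells of a type and less RNA per cell cannot be told apart.

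Per kb of exon, Defb6 was the most abundant member in every group. In VAS+H2O it reached 112 ± 30.7 CPM per kb (mean ± SD, n = 3), followed by Defb1 at 8.36 ± 2.03 and Slpi at 3.98 ± 1.29. The libraries of these 3 genes did not overlap with one another. Exon bases were merged over all annotated transcripts, which gave 1180 for the 3 of Slpi, and the separation of Slpi from Defb1 depends on that length. Defb14 followed at 0.227 ± 0.393 CPM per kb, and Defb3 and Defb4 had no count. In IMQ+H2O the order of Defb1 and Slpi was the other way round, with Slpi at 18.9 ± 5.07 and Defb1 at 4.82 ± 0.848 CPM per kb, below Defb6 at 101 ± 16.6. Defb14 at 0.901 ± 0.265 and Defb3 at 0.616 ± 0.170 overlapped there. In IMQ+XYF, Defb6 stood at 186 ± 83.1, Slpi at 39.0 ± 12.3, Defb1 at 9.61 ± 5.71 and Defb14 at 4.36 ± 4.96 CPM per kb, and the ranges of Defb1 and Defb14 overlapped. Defb3 at 0.985 ± 1.55 and Defb4 at 0.613 ± 0.591 could not be ordered against each other.

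Slpi rose with imiquimod and was highest in the mice that also received XYF. In VAS+H2O its counts were 171, 231 and 263, or 4.15, 6.42 and 3.52 CPM. In IMQ+H2O they were 537, 792 and 1497, or 18.5, 19.2 and 29.2 CPM. In IMQ+XYF they were 3855, 1507 and 3665, or 48.0, 30.6 and 59.5 CPM. Every library with imiquimod stood above every control library, and the 3 IMQ+XYF libraries all stood above the 3 IMQ+H2O libraries, although IMQ+XYF replicate 2 did so by a narrow margin. The group means were 4.70 ± 1.52, 22.3 ± 5.98 and 46.0 ± 14.5 CPM. Groups that did not overlap were common over all tested genes, at 31.5% in IMQ+H2O against VAS+H2O, 18.0% in IMQ+XYF against IMQ+H2O and 22.1% in IMQ+XYF against VAS+H2O. Of the 6 members, 3 (Slpi, Defb1 and Defb3), 1 (Slpi) and 2 (Slpi and Defb14) did not overlap in these comparisons. Defb3 was not among the tested genes, and of the 4 tested members 2, 1 and 2 did not overlap.

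The log2 fold change of Slpi in IMQ+H2O against VAS+H2O was 2.26 (SE 0.32, edgeR adjusted p = 0.0247), which is 4.78-fold with a 95% interval from 2.88 to 7.92. Slpi was the only called member among the 4 tested, where 0.994% of all 22430 tested genes were called by edgeR and 3.88% by DESeq2. Leaving out 1 library ended this call for VAS+H2O replicates 1, 2 and 3 and IMQ+H2O replicates 2 and 3, with edgeR adjusted p between 0.0513 and 0.0886 and log2 fold changes between 2.03 and 2.54. With DESeq2 the adjusted p was 2.77e-09.

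IMQ+XYF against VAS+H2O, a comparison that shares its control libraries with the previous one, gave Slpi a log2 fold change of 3.30 (SE 0.33, edgeR adjusted p = 0.0117), or 9.85-fold with a 95% interval from 5.83 to 16.7. Here 1.20% of tested genes were called by edgeR and 3.46% by DESeq2. This call stood under all 17 alternatives, with adjusted p up to 0.0472.

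The direct comparison of IMQ+XYF with IMQ+H2O did not pass the threshold for Slpi. Its log2 fold change was 1.04 (SE 0.31, edgeR adjusted p = 0.364, unadjusted p = 0.00797), or 2.06-fold with a 95% interval from 1.27 to 3.34, and the DESeq2 adjusted p was 0.0603. None of the 4 tested members was called by edgeR or by DESeq2, and 3 of them had an unadjusted edgeR p under 0.05. In this comparison 0.00892% of tested genes, 2 genes in all, were called by edgeR and 1.14% by DESeq2, while 2633 genes had an unadjusted edgeR p under 0.05. With 3 libraries against 3, the smallest p that an exact two-sided permutation test can give is 0.1.

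**Figure D1:**
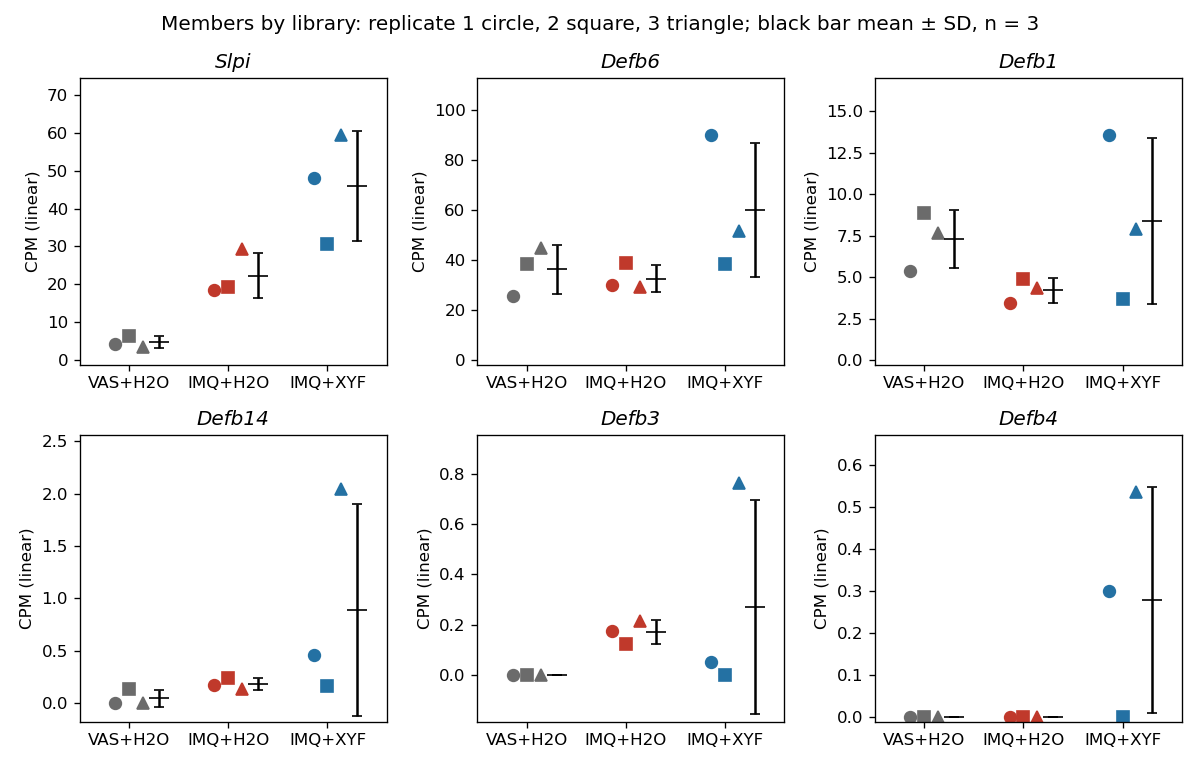
Level of each member in CPM on a linear axis in the 9 libraries, with the mean and SD of each group of 3 in black. Slpi separates the 3 groups, Defb6 and Defb1 are highest in IMQ+XYF replicate 1, and Defb14, Defb3 and Defb4 are at or near 0 outside a few libraries.

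Among the beta-defensins, Defb1 and Defb6 were present in every library and neither was called in any comparison. Defb6, described from muscle and from stratified epithelia, had counts of 1052, 1377 and 3362 in VAS+H2O, 867, 1600 and 1500 in IMQ+H2O, and 7252, 1895 and 3192 in IMQ+XYF. These were 25.5, 38.3 and 45.04 CPM, then 29.9, 38.8 and 29.3 CPM, then 90.2, 38.5 and 51.8 CPM. The 3 groups overlapped, and IMQ+XYF replicate 1 alone stood above all other libraries by a wide gap. The log2 fold changes of Defb6 were -0.15 (SE 0.32, edgeR adjusted p = 0.815) for IMQ+H2O against VAS+H2O, 0.88 (SE 0.32, adjusted p = 0.379) for IMQ+XYF against IMQ+H2O, and 0.73 (SE 0.32, adjusted p = 0.266) for IMQ+XYF against VAS+H2O. The first of these allows between 0.547-fold and 1.48-fold. Without IMQ+XYF replicate 1 the second came to 0.47 and the third to 0.32. The summed level of skeletal muscle markers was 707 to 3381 CPM in VAS+H2O, 1566 to 3283 CPM in IMQ+H2O and 159 to 1142 CPM in IMQ+XYF, with the lowest of these sums in IMQ+XYF replicate 1, and the part of muscle in the Defb6 counts was not tested.

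Defb1, the constitutive member, had counts of 221, 318 and 573 in VAS+H2O, 99, 201 and 221 in IMQ+H2O, and 1091, 180 and 486 in IMQ+XYF. In CPM these were 5.36, 8.84 and 7.68, then 3.41, 4.88 and 4.31, then 13.6, 3.66 and 7.89. All 3 IMQ+H2O libraries were below all 3 VAS+H2O libraries. The log2 fold change of Defb1 in IMQ+H2O against VAS+H2O was -0.79 (SE 0.42, edgeR adjusted p = 0.314), with an interval from 0.297-fold to 1.12-fold. In IMQ+XYF its libraries spread from 3.66 CPM, within the range of IMQ+H2O, to 13.6 CPM, above all other libraries. The log2 fold change of IMQ+XYF against IMQ+H2O was 0.996 (SE 0.42, edgeR adjusted p = 0.414), and 0.46 without IMQ+XYF replicate 1. That of IMQ+XYF against VAS+H2O was 0.20 (SE 0.41, edgeR adjusted p = 0.854), and -0.33 without that library.

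The 3 inducible members, Defb14, Defb3 and Defb4, were rare, and their highest counts were all in IMQ+XYF replicate 3. Defb14, the mouse counterpart of human hBD3, had counts of 0, 5 and 0 in VAS+H2O, 5, 10 and 7 in IMQ+H2O, and 37, 8 and 126 in IMQ+XYF. In CPM the group means were 0.0463 ± 0.0802, 0.184 ± 0.0540 and 0.890 ± 1.01. IMQ+H2O and VAS+H2O overlapped, since replicate 2 of the control group at 0.139 CPM was just above IMQ+H2O replicate 3 at 0.137 CPM. All 3 IMQ+XYF libraries were above all control libraries. The log2 fold change of Defb14 in IMQ+XYF against VAS+H2O was 4.50 (SE 1.34, edgeR adjusted p = 0.121) and rests on 5 control counts from 1 library. DESeq2 called it, with an adjusted p of 0.0124. No control library had more than 5 counts. Defb14 therefore passed the filter on low counts only through libraries with imiquimod, and its edgeR tests against VAS+H2O are not independent of that filter. The other comparisons gave 2.23 (SE 1.42, edgeR adjusted p = 0.400) for IMQ+H2O against VAS+H2O and 2.27 (SE 1.11, edgeR adjusted p = 0.457) for IMQ+XYF against IMQ+H2O. Without IMQ+XYF replicate 3 the last of these came to 0.78 and that of IMQ+XYF against VAS+H2O to 2.95. Without VAS+H2O replicate 3 the log2 fold changes against VAS+H2O were 1.42 for IMQ+H2O and 3.69 for IMQ+XYF. Without VAS+H2O replicate 2 no control count was left, and the fitted values of 6.31 and 8.58 are no bounds, since they depend on the prior count.

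Defb3 and Defb4 were below the filter on low counts that edgeR applies and are given as counts. Defb3 had 0, 0 and 0 counts in VAS+H2O, 5, 5 and 11 in IMQ+H2O, and 4, 0 and 47 in IMQ+XYF. Every IMQ+H2O library therefore had Defb3 reads and no control library had any. Set against the floor of 3 counts per control library, the mean of IMQ+H2O was at least 2.59-fold higher and that of IMQ+XYF at least 4.14-fold higher. The second bound rests on IMQ+XYF replicate 3, since the other libraries of that group had 4 and 0 counts. In a fit with no filter the edgeR adjusted p was 0.276 and 0.242. The ratio of the IMQ+XYF mean to the IMQ+H2O mean was 1.60, and it came from a single library with 47 counts. Defb4 had no count in any of the 6 libraries of VAS+H2O and IMQ+H2O, and 24, 0 and 33 in IMQ+XYF. Its mean in IMQ+XYF was at least 3.56-fold higher than in IMQ+H2O and at least 4.25-fold higher than in VAS+H2O, with edgeR adjusted p of 0.532 and 0.277 in the fit with no filter. These bounds take the IMQ+XYF mean of 0.278 ± 0.268 CPM as measured and do not cover the spread of that group. IMQ+XYF replicate 2 had neither Defb3 nor Defb4 and the lowest Defb14, Slpi, Defb6 and Defb1 of its group.

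**Figure D2:**
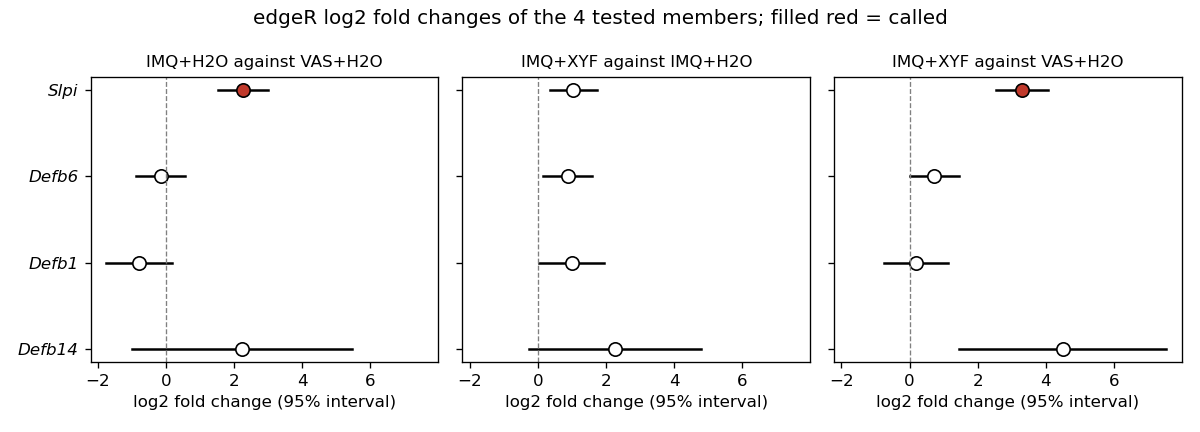
Log2 fold changes from edgeR with 95% intervals for the 4 tested members in the 3 comparisons, with a dashed line at no change. Only the Slpi points against VAS+H2O, 2.26 and 3.30, are filled as called, and the intervals of Defb14 are the widest.

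Keratinocyte markers moved with these genes, in different ways for different members. The 11 markers of activated epidermis, such as Krt6b, Krt16 and Sprr2d, summed to 259 to 409 CPM in VAS+H2O, 553 to 889 CPM in IMQ+H2O and 671 to 3379 CPM in IMQ+XYF. The sums of IMQ+XYF replicates 1 and 3 were 1733 and 3379 CPM against 671 CPM in replicate 2. Sprr3 had no count in 8 of the libraries, and Stfa1 had none in VAS+H2O replicates 1 and 3. Of the 10 tested markers, edgeR called 0 and DESeq2 5 in IMQ+H2O against VAS+H2O, where 7 had an unadjusted edgeR p under 0.05. Their median log2 fold change was 2.52 against -0.02 over all genes. In IMQ+XYF against VAS+H2O edgeR called 6 higher and DESeq2 called 10, with a median of 4.63. Of all tested genes, edgeR called 0.994% and DESeq2 3.88% in the first of these comparisons, and 1.20% and 3.46% in the second. In IMQ+XYF against IMQ+H2O edgeR called 0 and DESeq2 3, with 8 at an unadjusted edgeR p under 0.05. The median was 1.96 against 0.01 over all genes, and DESeq2 called 1.14% of all tested genes. Neutrophil markers summed to 13.3 to 41.6 CPM, 252 to 767 CPM and 208 to 538 CPM in the same order of groups, with 3 to 6 of 18 markers at 0 in a control library and 0 to 2 in the others. Of the 16 tested neutrophil markers, edgeR called 8 higher and DESeq2 called 14 in IMQ+H2O against VAS+H2O, with a median log2 fold change of 3.95. In IMQ+XYF against VAS+H2O edgeR called 7 higher and DESeq2 called 12, with a median of 3.42. In IMQ+XYF against IMQ+H2O both called 0, with a median of -0.41. Granule genes differed. DESeq2 called Mmp8, Mmp9 and Ngp in IMQ+H2O against VAS+H2O, and edgeR called Mmp8. Ltf had no count in 6 of the libraries and Camp averaged 0.213, 0.102 and 0.249 CPM. The part of neutrophils in the Slpi result was not tested.

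The level of each member was also divided by the summed baseline epidermis markers. That sum was itself lower in all IMQ+H2O libraries, at 3204 to 4580 CPM, than in all VAS+H2O and IMQ+XYF libraries, at 5212 CPM or more. A ratio can therefore move with the divisor alone, and the part of keratinocytes was not tested. Slpi came to 0.528 to 0.676 CPM per 1000 CPM of epidermal markers in VAS+H2O and 4.20 to 7.31 in IMQ+H2O, without overlap. In IMQ+XYF it came to 1.98, 5.09 and 8.10, where the libraries overlapped with IMQ+H2O. Defb1 came to 0.683 to 1.47 in VAS+H2O, 1.06 to 1.08 in IMQ+H2O and 0.559 to 1.07 in IMQ+XYF on the same scale. Its groups, which had not overlapped between IMQ+H2O and VAS+H2O in CPM, overlapped here. Defb6 came to 3.25 to 8.64, 7.32 to 9.32 and 3.72 to 7.05. All IMQ+XYF libraries were below all IMQ+H2O libraries on this scale, although the mean of Defb6 in CPM was higher in IMQ+XYF, at 60.2 against 32.6. The share of all genes that separate on this scale was not computed. With the baseline epidermis score as a covariate in the edgeR fit, an alternative chosen after the data were examined, the log2 fold change of Slpi was 2.49 (adjusted p = 0.0314) for IMQ+H2O against VAS+H2O, 0.76 (adjusted p = 0.563) for IMQ+XYF against IMQ+H2O and 3.25 (adjusted p = 0.0179) for IMQ+XYF against VAS+H2O. In the same fit the log2 fold change of IMQ+XYF against IMQ+H2O was 0.19 for Defb1 and 0.39 for Defb6. The score was itself lower in all IMQ+H2O libraries, at -0.795 to -0.528, than in any other library. The lowest of those was VAS+H2O replicate 3 at -0.432. Treatment and score can therefore not be told apart in this fit.

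**Figure D3:**
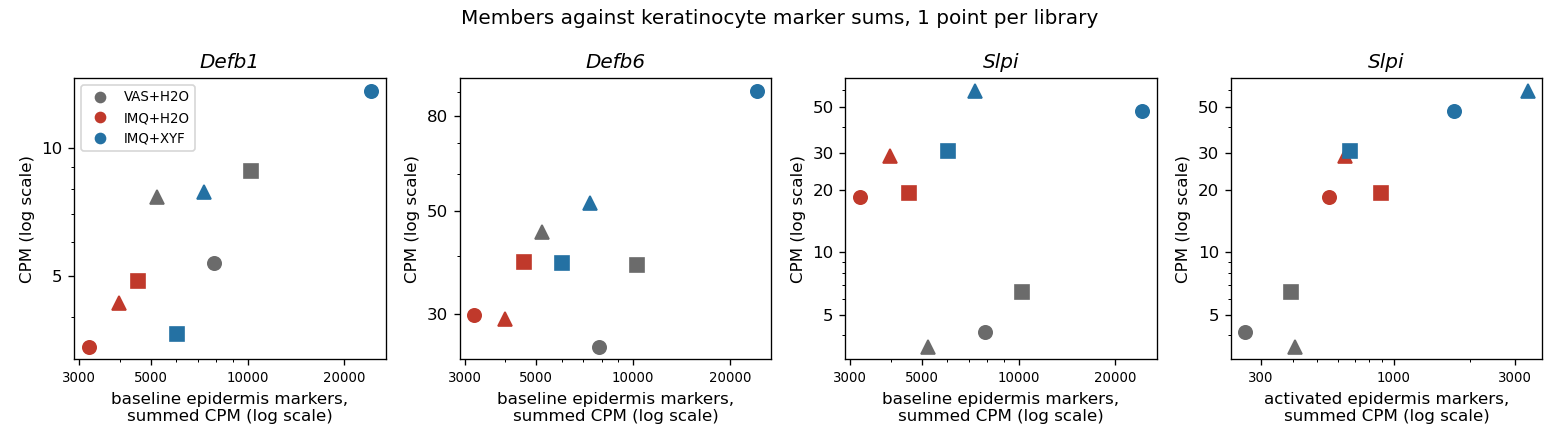
Level of Defb1, Defb6 and Slpi against the summed CPM of the baseline or activated epidermis markers, both on log axes, with 1 point per library, colours for groups and symbols for replicates. Defb1 and Defb6 are highest in IMQ+XYF replicate 1, which has the highest baseline sum of 24276 CPM, whereas Slpi is lowest in the control libraries, whose activated sums are at most 409 CPM and whose baseline sums reach 10266 CPM.

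Levels of some members moved together over the 9 libraries. Log2 CPM of Defb1 and Defb6 had a Pearson r of 0.79 and that of Defb14 and Slpi an r of 0.87, whereas r was 0.01 for Defb1 and Slpi, 0.24 for Defb1 and Defb14, 0.46 for Defb6 and Slpi and 0.52 for Defb6 and Defb14. With the mean log2 score of the baseline epidermis markers, r was 0.84 for Defb1, 0.69 for Defb6, 0.21 for Defb14 and 0.11 for Slpi. With the activated epidermis score it was 0.14, 0.51, 0.95 and 0.97 in the same order, and with the neutrophil score -0.15, 0.29, 0.75 and 0.91. These values are descriptions, since the 9 points share 3 treatments and the markers and members come from the same libraries. Those of Defb14 rest on counts of at most 10 outside IMQ+XYF replicates 1 and 3. The genes most like Slpi were Epgn, which encodes a ligand of the epidermal growth factor receptor, Stfa1, Sprr2d, Gpx2 and Pop1, with r between 0.980 and 0.987. Of these, Stfa1 and Sprr2d are also in the activated epidermis list. Most like Defb14 were Lce3f, Ppif, Artn, Slc39a1 and Sprr2e, with r from 0.937 to 0.974, where Lce3f and Sprr2e encode cornified envelope proteins. Most like Defb6 were Cdh3, the P-cadherin of basal keratinocytes, with r = 0.979, Ammecr1, Ttk, Hmgn1 and Cwh43. Most like Defb1 were Tuba4a, with r = 0.979, Fam46b, Cpne3, Ggh and Tmprss13.

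Of the 42 beta-defensin genes in the table, 25 had no count in any library. Only 6 reached 10 counts in a library, namely the 5 members and Defb8, and the highest count of the remaining genes was 7. Defb8 behaved unlike any member. It had 102, 106 and 167 counts in the control libraries, 16, 0 and 11 in IMQ+H2O, and 9, 0 and 5 in IMQ+XYF, so that every control library was above every library with imiquimod. It was called lower in IMQ+XYF against VAS+H2O, with a log2 fold change of -5.15 (SE 1.04, edgeR adjusted p = 0.0475), a call lost under 11 of the 17 alternatives, 7 of them with 1 library left out (VAS+H2O replicates 1, 2 and 3, IMQ+H2O replicates 1 and 3, and IMQ+XYF replicates 1 and 3), with adjusted p up to 0.139. In IMQ+H2O against VAS+H2O it was -3.39 (SE 0.95, edgeR adjusted p = 0.104, DESeq2 adjusted p = 0.0125). Its annotated coding sequence has 5 cysteine codons where the members have at least 6. Its promoter had identical bases with that of Defb3 at 86.6% of aligned positions, and the control libraries in which Defb8 was high had no Defb3 count. Of its 238 stretches of 50 exon bases, Defb8 shared 23 with Defb4, which had no count in the control libraries either, and none with Defb3. Whether reads of 1 of these genes were counted for another was not tested. Hair follicle markers fell in the same samples, from 141 to 529.6 CPM in VAS+H2O to 8.15 to 43.0 CPM in IMQ+H2O and 9.72 to 23.1 CPM in IMQ+XYF. Of 17 tested markers, edgeR called 10 and 11 lower against VAS+H2O, where it called 0.994% and 1.20% of all tested genes. Their part in the Defb8 counts was not tested.

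**Figure D4:**
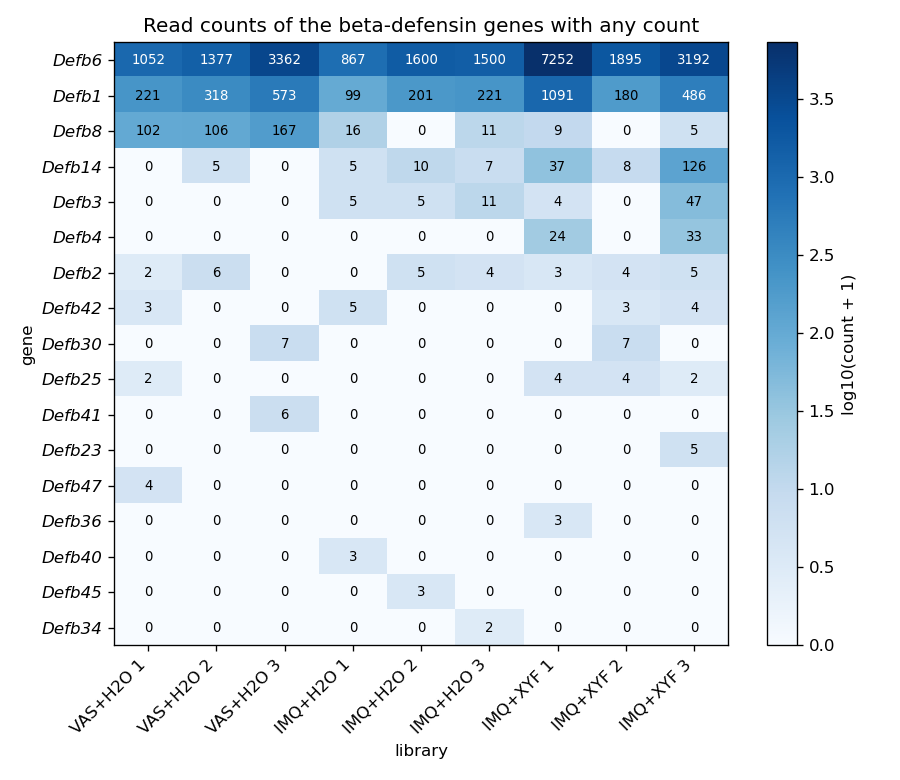
Read counts of the 17 beta-defensin genes with any count in the 9 libraries, with the count printed in each cell and shaded by log10(count + 1). Defb8 counts are between 102 and 167 in the control libraries and at most 16 elsewhere, whereas Defb3 and Defb4 are at 0 in all control libraries.

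Of the WAP domain family, 9 of 20 genes were tested and Slpi alone was called. The most abundant other member of that family, Wfdc17, a product of activated macrophages, had mean levels of 24.8, 44.1 and 28.6 CPM with edgeR adjusted p of 0.195 for IMQ+H2O against VAS+H2O. Among other antimicrobial proteins of skin, 5 of 20 tested genes rose and 1 fell in IMQ+H2O against VAS+H2O, with a median log2 fold change of 0.49, where 0.994% of all tested genes were called. Lcn2, which sequesters bacterial siderophores, averaged 25.1 ± 6.27 CPM in the control group and 233 ± 56.2 CPM in the model group, a log2 fold change of 3.22 (edgeR adjusted p = 0.00255). S100a8 and S100a9, the calprotectin subunits and also neutrophil markers, rose by log2 fold changes of 5.22 and 5.20, and Chil3 by 4.45. Pglyrp1, which encodes a peptidoglycan recognition protein, rose by 1.70, and Retnla, a marker of alternatively activated macrophages, fell by 2.24. In IMQ+XYF against VAS+H2O the called genes were the same 6 and Pglyrp3, where 1.20% of all tested genes were called, and in IMQ+XYF against IMQ+H2O neither edgeR nor DESeq2 called any of the 20, with 5 at an unadjusted edgeR p under 0.05. Lcn2, S100a8 and S100a9 had lower means in IMQ+XYF than in IMQ+H2O, at 150, 115 and 149 CPM against 233, 126 and 168 CPM, none of them called. Of the 20 tested genes, 8 had a positive log2 fold change in this comparison, as Slpi had. Pglyrp3 was among these, with means of 3.84 CPM in IMQ+H2O and 8.45 CPM in IMQ+XYF. The abundant Rnase4 and Lyz2 were not called by edgeR in any comparison. The Lcn2 calls stood under all 17 alternatives in both comparisons with VAS+H2O, whereas each call of S100a8, S100a9, Pglyrp1, Pglyrp3, Chil3 and Retnla was lost under at least 1 alternative, as were those of Serpina3n, Mrgpra2b and Il19 given next.

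Of the serine proteases that Slpi inhibits and their granule partners, 8 of 11 were tested and edgeR called 0 in each comparison, with 1, 4 and 2 at an unadjusted p under 0.05 and median log2 fold changes of 0.12, -0.20 and -0.31 for imiquimod against control, XYF against imiquimod and XYF against control. DESeq2 called Ctsg in IMQ+H2O against VAS+H2O and Klk7 in IMQ+XYF against VAS+H2O. Elane, which encodes neutrophil elastase, averaged 0.0313, 0.0325 and 0.0475 CPM and was not tested. Ctsg, which encodes cathepsin G, went from 1.62 to 0.419 CPM with imiquimod (log2 fold change -1.94, edgeR adjusted p = 0.0668). The epidermal protease Klk7 and the mast cell protease Mcpt4 were the most abundant of the list, and Klk7 had means of 51.2, 60.6 and 154 CPM. Of 19 tested serine protease inhibitors of skin, edgeR called Serpina3n higher against VAS+H2O in both groups with imiquimod, and its mean levels were 153, 732 and 637 CPM. DESeq2 called Serpina3n in the same comparisons, Serpina1b in IMQ+H2O against VAS+H2O and Serpinb3b in IMQ+XYF against VAS+H2O. In IMQ+XYF against IMQ+H2O DESeq2 called Serpinb3b (adjusted p = 0.00242) and Serpinb12 (adjusted p = 0.0251). The edgeR adjusted p was 0.360 and 0.364, and both genes had their highest count in IMQ+XYF replicate 1. Serping1, the inhibitor of complement C1, averaged 618, 777 and 665 CPM and was not called by edgeR in any comparison. Of 10 tested receptors reported for beta-defensins, edgeR called Mrgpra2b, a receptor of neutrophils, against VAS+H2O in both groups with imiquimod. It was at 0 counts in every control library, at 39, 47 and 183 in the IMQ+H2O libraries and 98, 24 and 105 in the IMQ+XYF libraries, which was at least 30.8-fold and at least 17.4-fold above the floor. Ccr6, the receptor by which beta-defensins attract dendritic and T cells, averaged 0.547, 0.498 and 0.543 CPM. The most abundant of these receptors were Cd36, with means of 153, 234 and 150 CPM, and Tlr2, with means of 36.1, 24.3 and 21.0 CPM, neither of them called by edgeR. DESeq2 called Tlr1, Mrgpra2a and Mrgpra2b against VAS+H2O in both groups with imiquimod. Of 30 tested cytokines, receptors and factors upstream of skin antimicrobial genes, Il19 was called, with counts of 0, 3 and 3 in VAS+H2O, 116, 320 and 610 in IMQ+H2O and 440, 274 and 842 in IMQ+XYF. Il17a had no count in VAS+H2O and means of 0.146 and 0.187 CPM in the groups with imiquimod, and Il22 had none in VAS+H2O and means of 0.152 and 0.222 CPM. Neither was called by edgeR. Of this list DESeq2 called Il17a and Il19 in IMQ+H2O against VAS+H2O, and Il19, Il1a, Il36g, Il24 and Areg in IMQ+XYF against VAS+H2O. The abundant transcriptional regulators Nfkbiz and Stat3 averaged 332, 235 and 333 CPM and 194, 248 and 272 CPM, and edgeR called neither.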

How the data were processed

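The authors deposited 1 table of read counts per Ensembl gene, with whole-number counts for the 9 dermis libraries and no normalization. According to the labels and the methods, total RNA was isolated with TRIzol, libraries were made with a TruSeq kit and read on a HiSeq instrument, and reads were aligned with STAR 2.5 to GRCm38. StringTie, for assembly of transcripts, and Cuffnorm are also named. Which tool gave the counts, its use of strand, its treatment of reads with several alignments and any filter are not given in the sources used here. The methods describe RNA from intact ear sheets of more than 1 mouse, and whether mice were pooled in a library is unclear.

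The counts were tested with edgeR (version 4.0.16, R 4.3.3). filterByExpr left out genes of low count, libraries were scaled with TMM factors, and all 9 libraries entered 1 quasi-likelihood fit, with Benjamini-Hochberg adjustment over the 22430 tested genes. This test recovered 176 of 200 genes changed 4-fold in simulated data for IMQ+H2O against VAS+H2O, over 22430 genes, and called 6 unchanged genes. The changed genes were drawn from those with a mean above 1 CPM, so this recovery does not cover genes as rare as Defb14, Defb3 and Defb4. Intervals used the fit's residual degrees of freedom. The study tested with DESeq2, used here at version 1.42.0 as an alternative. Correlations used log2 CPM with a prior count of 2. Text names every member, the 5 genes most correlated with each tested member (symbols of the Gm and Rik kind left out), and of each gene list other than the cell type markers the called genes and the 2 most abundant. Genes named beyond these were chosen after their values were seen. Members and gene lists were chosen with earlier results of these data known. Of the listed genes, 279 matched by their own symbol, 4 by another name in RefSeq, and 1 was not matched. Loci, transcripts and coding sequences came from GENCODE vM21 and promoters from RefSeq. Alternatives were DESeq2, other scaling, other filters, fits of 2 groups, a replicate block, each library left out, and an epidermis covariate chosen after the data were examined.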

Additional observations from a re-analysis of the deposited data

How the results depend on the processing

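In IMQ+XYF against IMQ+H2O, Defb1, Defb6 and Slpi were called under none of 17 alternatives and Defb14 under none of the 16 that tested it. Slpi stayed called in IMQ+XYF against VAS+H2O under all 17. DESeq2 called 2 members there, Defb14 and Slpi. In IMQ+H2O against VAS+H2O the number of members called, 1 in the main result, was 0 with the replicate block (Slpi adjusted p = 0.0621) and ranged from 0 to 1 when 1 library was left out. The block uses numbers that do not pair the samples, since deviations of same-numbered libraries had r from -0.18 to 0.12 and those of other pairs r from -0.16 to 0.28.

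Directions that reversed belonged to members not called. Defb6 in IMQ+H2O against VAS+H2O ranged from -0.36 to 0.032 with 1 library left out (0.032 without VAS+H2O replicate 3) and came to 0.13 with the baseline epidermis score as a covariate, and Defb1 in IMQ+XYF against VAS+H2O ranged from -0.33 (without IMQ+XYF replicate 1) to 0.61 and came to -0.12 with the covariate. The cause was not tested.

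Over all genes, the 223 calls of IMQ+H2O against VAS+H2O became 945 with DESeq2, 496 with only the 2 groups compared, 86 with the replicate block, and 25 to 455 with 1 library left out. The 2 calls of IMQ+XYF against IMQ+H2O became 223 with DESeq2, 1 with library totals alone, with at least 1 CPM in 3 libraries, and with only the 2 groups compared, 0 with the block, 4 with the covariate, and 0 to 4 with 1 library left out. The 270 calls of IMQ+XYF against VAS+H2O became 701, 33 with the 2 groups, 54 with the block, 146 with the covariate, and 12 to 592 with 1 library left out. Depth limits Defb3, Defb4 and Defb14, whose highest count was 126.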
